A study of Mus musculus with 6 samples.

Results

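This account covers 44 genes that cells switch on when they copy their DNA and divide, chosen as a named list and read apart as 23 replication genes and 21 mitosis genes. Of these, 42 matched 1 of the 22824 rows listed per library, 21 in each group, and the levels of Cdt1 and Gins2 were not analysed here. They were measured by paired-end RNA sequencing of C57BL/6 mouse femurs. The OE group, for Wnt7b overexpression, carried 9.6kb DMP1-Cre and the R26-Wnt7b allele, and its mice are labelled homozygotes. DMP1-Cre acts under regulatory sequence of Dmp1, a gene of osteocytes and mature osteoblasts, so the Wnt7b allele is meant to be switched on in those cells. The Ctrl group held littermates with R26-Wnt7b and no Cre. Both groups thus carried the R26-Wnt7b allele. The sources used here give no age or sex, and there were 3 libraries per group. Since the labels do not assign libraries to separate animals, p-values measure only the spread between these samples, which may be partly technical.

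A cell that starts to divide loads the ring-shaped MCM helicase onto replication origins, in a step called licensing. E2F transcription factors switch on the genes for helicase loading, DNA polymerases and nucleotide supply as the cell passes from G1 into S phase. Later, in G2, a second set of genes comes on for spindle assembly, chromosome attachment and the anaphase-promoting complex, and these are controlled largely through CCAAT boxes and a short element called the cell cycle genes homology region, or CHR. In bone tissue most dividing cells are blood precursors of the marrow, while osteocytes have left the cell cycle.

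Promoters are shown for the members with the highest mean level that had an entry, Pcna and Rrm2 for replication and Ube2c and Top2a for mitosis, so that the letters searched can be seen in place. Neither Pcna nor Rrm2 held E2F letters. Mcm3 and Cdc20 were added after their values were seen, since as deposited both lay lower in every OE library than in every Ctrl library. Each is printed from 250 bases before the first transcribed base to 30 bases from it onward, in RefSeq sequence on GRCm38.p6. Capitals mark E2F, CHR or CCAAT letters on either strand.
Pcna, chr2:132253151-132253430, minus strand: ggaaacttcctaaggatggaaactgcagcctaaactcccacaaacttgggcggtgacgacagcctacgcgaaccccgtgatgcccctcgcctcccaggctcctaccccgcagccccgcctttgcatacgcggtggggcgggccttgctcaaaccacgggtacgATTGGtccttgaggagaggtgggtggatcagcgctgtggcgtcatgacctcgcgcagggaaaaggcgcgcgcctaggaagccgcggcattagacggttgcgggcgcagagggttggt
Rrm2, chr12:24708004-24708283, plus strand: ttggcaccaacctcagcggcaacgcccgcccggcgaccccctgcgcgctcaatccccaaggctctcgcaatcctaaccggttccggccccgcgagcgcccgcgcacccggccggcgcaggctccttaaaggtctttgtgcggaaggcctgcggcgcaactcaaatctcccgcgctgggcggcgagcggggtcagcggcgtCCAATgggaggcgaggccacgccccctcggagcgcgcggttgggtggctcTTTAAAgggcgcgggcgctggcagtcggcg
Mcm3, chr1:20820283-20820562, minus strand: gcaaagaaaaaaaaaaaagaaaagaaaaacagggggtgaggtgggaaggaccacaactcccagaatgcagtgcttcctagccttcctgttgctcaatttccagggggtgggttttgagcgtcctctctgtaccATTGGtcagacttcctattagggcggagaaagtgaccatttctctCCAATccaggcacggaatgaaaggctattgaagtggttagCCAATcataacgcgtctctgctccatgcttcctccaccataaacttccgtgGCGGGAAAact
Ube2c, chr2:164769679-164769958, plus strand: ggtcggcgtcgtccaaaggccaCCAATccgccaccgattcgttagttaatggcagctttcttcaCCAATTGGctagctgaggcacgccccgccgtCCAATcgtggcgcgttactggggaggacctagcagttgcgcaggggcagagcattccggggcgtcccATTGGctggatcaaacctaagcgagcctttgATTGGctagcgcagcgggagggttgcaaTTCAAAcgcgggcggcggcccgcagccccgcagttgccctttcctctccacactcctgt
Top2a, chr11:99024160-99024439, minus strand: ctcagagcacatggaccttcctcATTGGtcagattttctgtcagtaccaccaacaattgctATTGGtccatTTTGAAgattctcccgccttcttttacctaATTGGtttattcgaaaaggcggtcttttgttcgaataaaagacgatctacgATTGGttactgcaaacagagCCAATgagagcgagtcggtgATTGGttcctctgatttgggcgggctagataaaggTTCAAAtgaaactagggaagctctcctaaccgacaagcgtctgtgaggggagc
Cdc20, chr4:118437314-118437593, minus strand: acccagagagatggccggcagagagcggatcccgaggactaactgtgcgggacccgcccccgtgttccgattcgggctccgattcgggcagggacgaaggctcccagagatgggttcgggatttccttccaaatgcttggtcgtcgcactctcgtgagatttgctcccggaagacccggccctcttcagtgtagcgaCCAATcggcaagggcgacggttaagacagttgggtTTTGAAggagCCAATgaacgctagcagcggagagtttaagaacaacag
The Pcna promoter held 1 CCAAT box in the reverse orientation, and Rrm2 held a CCAAT box and a CHR at the first transcribed base. Ube2c and Top2a held several CCAAT boxes upstream of a CHR, in Ube2c with 2 of the CCAAT matches overlapping as CCAATTGG. Mcm3 held E2F letters just inside the transcribed part, and Cdc20 held a CHR between its CCAAT boxes.

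Promoter sequence was found for 35 of the 44 members, with 37 promoters in all. Each was searched over 300 bases, 250 before and 50 from the first transcribed base onward, on both strands. The E2F letters searched were TTTCCCGC, TTTCGCGC, TTTGCCGC and TTTGGCGC. The CHR was searched as TTTGAA and in its second form as TTTAAA, which reads the same on both strands and was counted once. The CCAAT box was searched by the letters of its name. E2F letters were in 9 of 20 replication promoters (45.0%) and in 1 of 17 mitosis promoters (5.88%), that of Cdk1, against 2.26% of all 32851 promoters. The replication genes with E2F letters were Mcm3, Mcm5, Mcm6, Mcm7, Cdc6, Cdt1, Pola1, Cdk2 and E2f2. CHR letters were in 15 of 17 mitosis promoters (88.2%) and 7 of 20 replication promoters (35.0%), against 27.6% of all. CCAAT was in 15 mitosis promoters (88.2%) and 14 replication promoters (70.0%), against 37.4% of all. Both CHR and CCAAT were in 14 mitosis promoters (82.4%) and 5 replication promoters (25.0%), against 10.7% of all. In the mitosis promoters the median first base of a CHR match lay at -21 and that of a CCAAT match at -86, with the first transcribed base at 0. E2f1, Tyms and Nusap1 had none of the letters in this window. These matches describe the sequence and do not show that a factor binds.

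**Figure D1:**
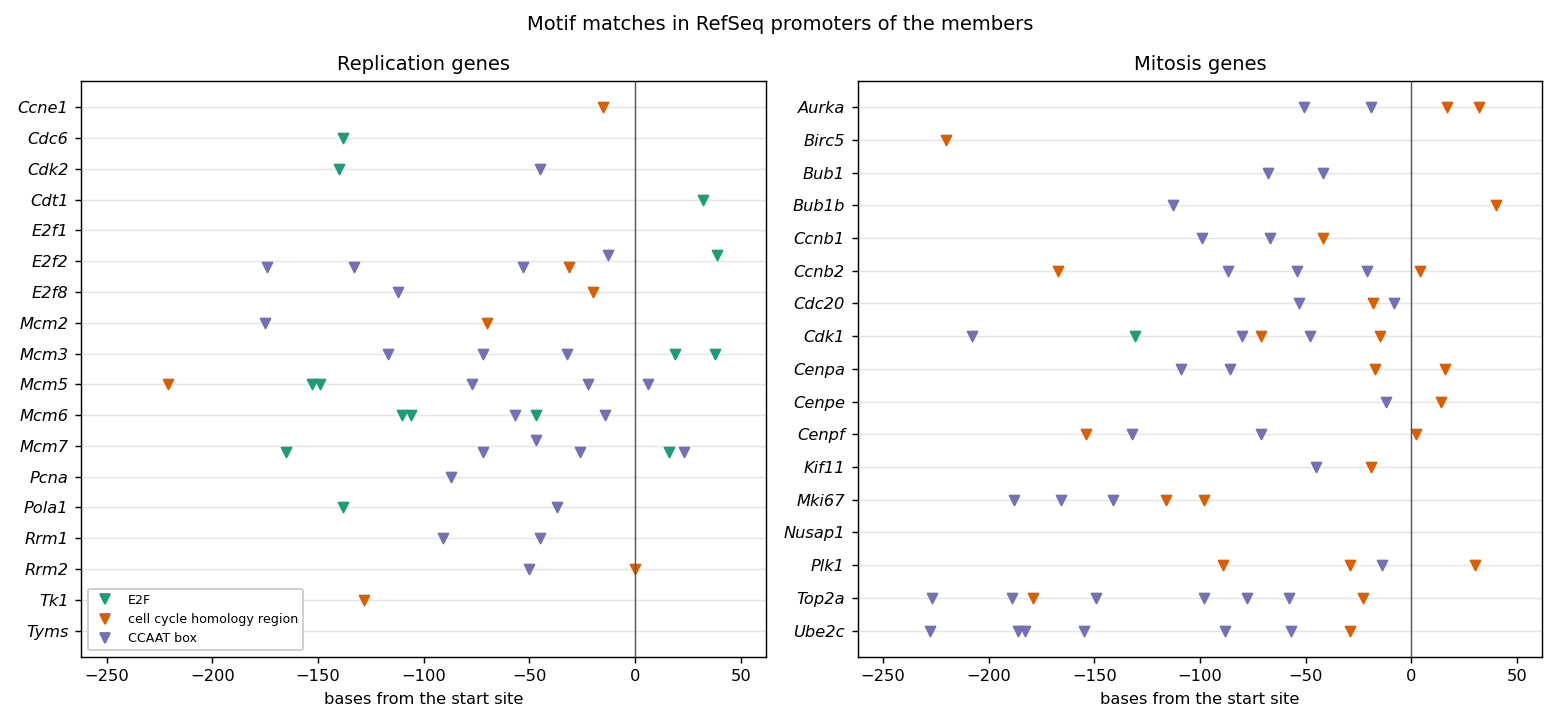
Motif letters in RefSeq promoters of the replication genes (left) and mitosis genes (right), with each triangle at the first base of a match and the horizontal axis in bases from the first transcribed base, which is at 0. E2F letters, in green, are in 9 of 20 replication promoters and 1 of 17 mitosis promoters, and CHR letters, in orange, are in 15 mitosis promoters; E2f2 and Mcm7 have 2 promoters each, drawn slightly apart.

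Levels are FPKM, that is, fragments mapped to a gene per kilobase of its transcript, scaled to all fragments mapped in the library. They still depend on what else the library holds and, as shown further on, on transcript length. Values across OE or across Ctrl are listed for libraries 1, 2 and 3 in turn, and Ctrl 1 stands throughout for the library so labelled. FPKM totals ran from 596413 to 775942 per library, and absolute depth is unknown. The library labelled Ctrl 1 held Wnt7b at 0.909 FPKM, inside the OE range of 0.295 to 2.49, whereas Ctrl 2 held 0.00833 and Ctrl 3 was listed at 0. That value is unlike those of Ctrl 2 and Ctrl 3, and results are therefore also given without the library labelled Ctrl 1. Wnt7b reached 1 FPKM in OE 1 only, so it missed the filter and was not tested between groups. Col2a1 and Bglap, given below, also lay inside the OE range in the library labelled Ctrl 1. Whether its label is right was not tested. Marrow transcripts were abundant in all 6 libraries in spite of the labels, which call the femurs free of marrow and cartilage. S100a8 and S100a9, neutrophil genes, made up 7.25% to 16.3% of all FPKM. For the haemoglobin genes the share was 7.45% in OE 3 and at most 1.26% elsewhere. Col2a1, the main cartilage collagen, ranged over 134 to 263 FPKM across OE, with 183 for the library labelled Ctrl 1 and, for Ctrl 2 and 3, 8.82 and 13.8. Bglap, the osteoblast gene for osteocalcin, ranged over 1891 to 3254 FPKM across OE, with 2552 for the library labelled Ctrl 1 and, for Ctrl 2 and 3, 91.8 and 58.8.

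Division genes were expressed in every femur library, most of them above the middle of the genes that reached 1 FPKM in it. No member passed the test between OE and Ctrl. Over all 42 members, FPKM ran from 6.91, for Pola1 in the library labelled Ctrl 1, to 239, for Pcna in OE 3. Ranked within each library among the genes at 1 FPKM or more in that library, the median replication gene stood at percentile 79.7 to 85.1. The median mitosis gene stood at 84.4 to 88.9. The lowest replication gene was at percentile 35.6 to 52.5 and the lowest mitosis gene at 42.8 to 62.1. Since the lowest value was above the filter of 1 FPKM, all 42 members were tested. By limma on log2(FPKM + 1), 0 of the 42 were called at an adjusted p of 0.05, and 0.0% of the 12177 genes tested were called. The smallest adjusted p was 0.554. At an unadjusted p under 0.05 there were 2 members, E2f1 and Cdc20, against 999 genes or 8.2% of all tested, and 996 genes by limma without a mean-variance trend.

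Most members lay a little lower in OE. The log2 difference was below 0 for 35 of 42 members, 18 of 21 replication genes and 17 of 21 mitosis genes, where 56.3% of all genes tested lay below 0. The median difference was -0.19 for replication and -0.18 for mitosis, against -0.04 for all genes tested. When FPKM was rescaled without S100a8, S100a9 and the haemoglobin genes, the median of all genes was higher by 0.11 in log2, and 28 members lay below 0. Relative to the median of all genes, replication and mitosis then lay at -0.14 and -0.12, against -0.15 and -0.13 as deposited. In bulk femur, fewer dividing cells and less of these RNAs per cell cannot be told apart. On FPKM as deposited, all OE values lay below all Ctrl values for 6 members, Mcm3, Mcm5, E2f1, Plk1, Aurkb and Cdc20, and 8.97% of all genes did so. The share of members, 3 of 21 in each group, is thus near that background. The opposite pattern, with every OE library above every Ctrl library, occurred as deposited in no member and in 4.59% of all genes. Leaving S100a8, S100a9 and haemoglobin out of the scaling multiplied values by 1.15 in OE 3 and by 0.92 in the library labelled Ctrl 1. Mcm3, Mcm5, E2f1 and Aurkb then overlapped between the groups, while Plk1 and Cdc20 stayed apart.

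**Figure D2:**
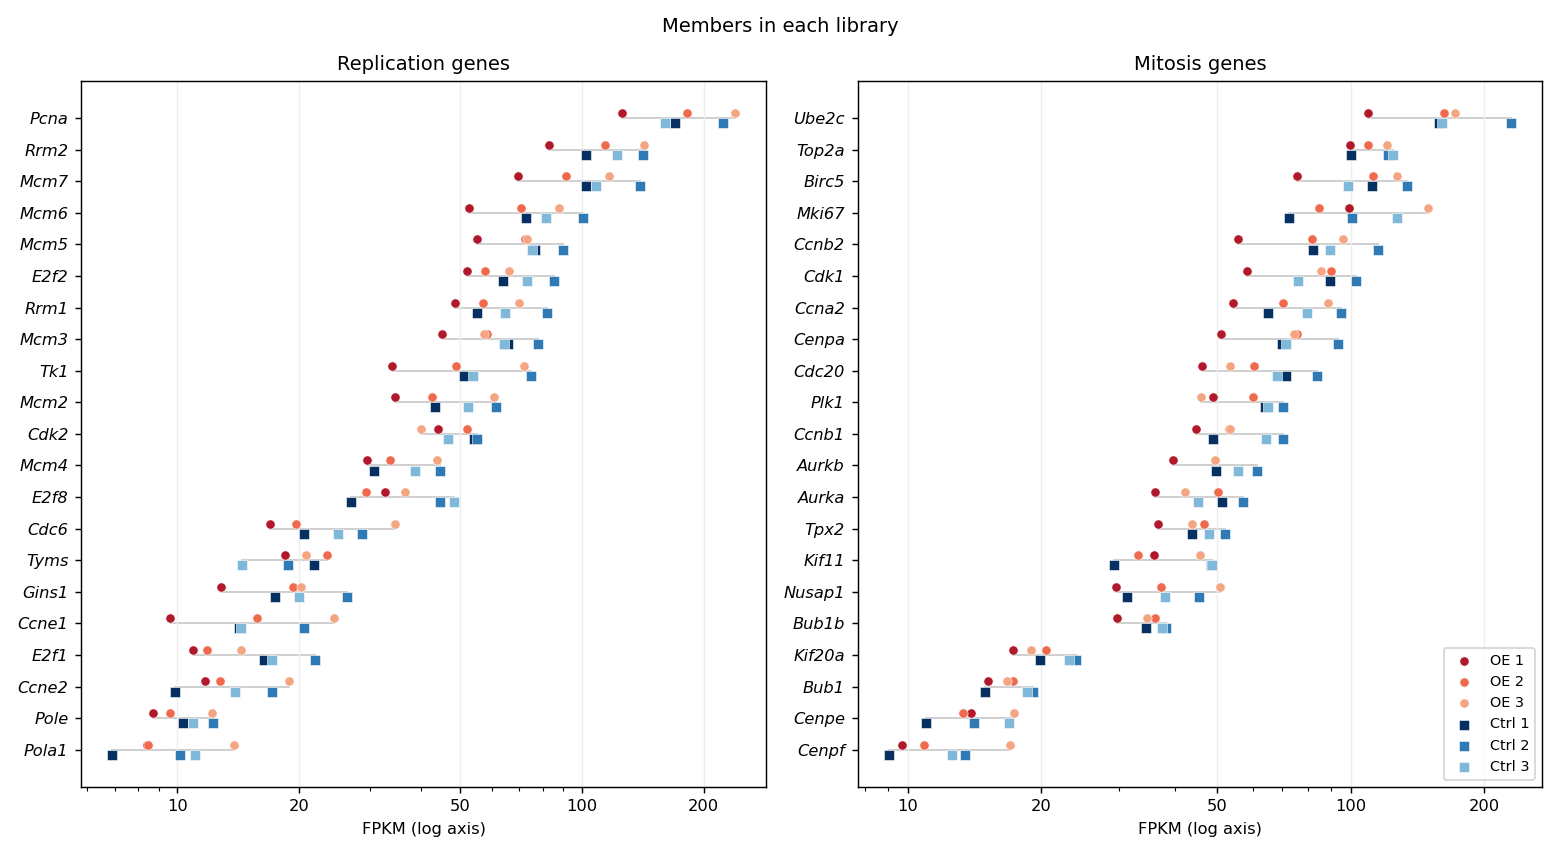
FPKM (log axis) of the 21 replication genes (left) and 21 mitosis genes (right), ordered by mean level, with OE libraries as circles drawn above and Ctrl libraries as squares drawn below each gene's line, and a grey line from lowest to highest. As deposited, OE 1 is the lowest library for 31 of the 42 members and Ctrl 2 the highest for 28, with 28 and 18 after trimmed-mean scaling.

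The medians rested on single libraries. OE 1 was the lowest of the 6 libraries for 31 of 42 members, 16 of them replication genes, and the library labelled Ctrl 1 was the lowest for another 8. Ctrl 2 was the highest for 28 members and OE 3 for 10. These orders moved with the scaling: after trimmed-mean scaling OE 1 was lowest for 28 members and Ctrl 2 highest for 18, and without S100a8, S100a9 and haemoglobin in the scaling OE 1 was lowest for 20, Ctrl 1 for 15 and OE 3 highest for 26. Without OE 1 the medians were -0.04 for replication and -0.05 for mitosis, with 27 of 42 members below 0. Without Ctrl 2 they were -0.09 and -0.10. Without OE 3 the replication median was -0.34 and the mitosis median -0.25, with 41 members below 0. Without the library labelled Ctrl 1 they were -0.31 and -0.25.

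Among the licensing genes all 7 measured members lay below 0, although Mcm4 and Cdc6 turned to 0.025 and 0.0061 when S100a8, S100a9 and haemoglobin were left out of the scaling. Their median was -0.27, and none passed. Mcm3, a helicase subunit (ENSMUSG00000041859, chromosome 1, 20802968 to 20820312, minus strand, GRCm38, 17 exons), had the lowest adjusted p of them. Mcm3 stood at 45.2, 58.4 and 57.5 FPKM across OE and 65.6, 77.8 and 64.3 across Ctrl. As deposited the groups did not overlap, though the gap between OE 2 and Ctrl 3 was small. They did overlap when S100a8, S100a9 and haemoglobin were left out of the scaling. Its log2 difference was -0.36 (SE 0.16, limma adjusted p = 0.554). Mcm5, another ring subunit, stood at 55.0, 72.3 and 73.3 across OE and 76.7, 90.0 and 75.3 across Ctrl, also without overlap as deposited only (log2 difference -0.27, SE 0.17). Mcm7 had the highest level of the ring at 69.5, 91.2 and 117 FPKM across OE and 102, 139 and 109 across Ctrl. OE 3 lay inside the Ctrl range for Mcm7, and OE 1 and OE 2 lay below it. Mcm6 averaged 70.4 ± 17.5 FPKM across OE and 85.0 ± 14.1 across Ctrl (SD, n = 3). Mcm2 had 46.0 ± 13.4 and 52.4 ± 9.08, and Mcm4 35.6 ± 7.38 and 37.9 ± 6.94 (SD, n = 3), so both overlapped widely. Cdc6, which loads the ring onto origins, stood at 16.9, 19.7 and 34.5 across OE and 20.6, 28.6 and 25.0 across Ctrl, with OE 3 above every Ctrl library. Although the 6 subunits form 1 complex, their differences ran from -0.09 for Mcm4 to -0.36 for Mcm3.

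Among the origin firing and fork genes 3 of 4 lay below 0, although Pcna turned above 0 under each other scaling. Pcna, the sliding clamp that holds polymerases on DNA, was the highest of all members at 126, 182 and 239 FPKM across OE and 170.3, 224 and 161 across Ctrl. The OE libraries held both the lowest and the highest Pcna value, and the log2 difference was -0.06 (SE 0.27). Gins1, of the GINS complex that activates the helicase, stood at 12.9, 19.3 and 20.2 across OE and 17.4, 26.3 and 19.9 across Ctrl. For Pole, the leading-strand polymerase, the values were 8.73, 9.59 and 12.2 across OE and 10.3, 12.3 and 10.9 across Ctrl. The log2 difference was -0.27 (SE 0.23) for Gins1 and -0.14 (SE 0.16) for Pole. Pola1, the polymerase that starts each strand, was one of 7 members with a difference above 0. Its values were 8.43, 8.46 and 13.8 across OE and 6.91, 10.1 and 11.1 across Ctrl, so the groups overlapped in part (log2 difference 0.11, SE 0.25).

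Of the 4 nucleotide supply genes, 3 lay below 0 and Tyms above. Tyms encodes thymidylate synthase, which makes the thymidine nucleotide from its uridine counterpart. It stood at 18.4, 23.4 and 20.8 FPKM across OE and 21.8, 18.8 and 14.5 across Ctrl, and its difference of 0.19 (SE 0.18) was the highest of all members. OE 2 was the highest library for Tyms and for no other member. Tk1, thymidine kinase of the salvage route, ran the other way at 34.0, 48.9 and 71.9 across OE and 51.1, 74.7 and 53.7 across Ctrl (log2 difference -0.25, SE 0.29). Both subunits of ribonucleotide reductase, which makes deoxynucleotides, had their lowest value in OE 1. Rrm2 stood at 83.2, 114 and 142 across OE and 102, 142 and 122 across Ctrl. Rrm1 averaged 58.5 ± 10.6 FPKM across OE and 67.2 ± 13.6 across Ctrl (SD, n = 3).

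Of the genes that carry cells into S phase, Ccne1 spread most between libraries. Ccne1, cyclin E1, stood at 9.62, 15.8 and 24.4 FPKM across OE and 14.2, 20.6 and 14.4 across Ctrl. Its ratio of 2.53 between OE 3 and OE 1 was the highest of any member, where the median over all genes tested was 1.68, while its group difference was -0.05 (SE 0.33). Ccne2 stood at 11.7, 12.8 and 18.9 across OE and 9.86, 17.2 and 13.9 across Ctrl, with a difference of 0.08 (SE 0.25). Cdk2, the kinase that these cyclins activate, varied less, at 44.1, 52.2 and 40.0 across OE and 54.0, 55.0 and 46.6 across Ctrl. For Cdk2 the lowest library was OE 3, not OE 1.

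The E2F factors had the lowest median of the replication roles, -0.33, and E2f1 had the lowest difference of all members. E2f1 (ENSMUSG00000027490, chromosome 2, 154559407 to 154569892, minus strand, GRCm38, 7 exons) is an activator of S-phase genes. It stood at 11.0, 11.9 and 14.4 FPKM across OE and 16.4, 21.9 and 17.1 across Ctrl. As deposited, no OE library reached the lowest Ctrl library. OE 3 passed the library labelled Ctrl 1 when S100a8, S100a9 and haemoglobin were left out of the scaling. OE averaged 12.4 ± 1.78 FPKM and Ctrl 18.5 ± 2.98 (SD, n = 3), and the log2 difference was -0.54 (SE 0.17, limma adjusted p = 0.554). E2f2, also an activator, stood at 52.1, 57.5 and 65.9 across OE and 63.8, 85.2 and 73.3 across Ctrl, with OE 3 just above the library labelled Ctrl 1. Its difference was -0.33 (SE 0.17). E2f8, a repressor of the same target genes, stood at 32.7, 29.3 and 36.5 across OE, with 26.9 for the library labelled Ctrl 1 and, for Ctrl 2 and 3, 44.5 and 48.4. The difference for E2f8 was -0.24 (SE 0.24), and -0.49 (SE 0.17, limma adjusted p = 0.206) without the library labelled Ctrl 1.

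Turning to mitosis, the 2 genes of chromosome structure were among the highest and had small differences. Mki67, which encodes the Ki-67 protein that coats mitotic chromosomes and marks dividing cells, stood at 99.2, 84.6 and 149 FPKM across OE and 72.3, 101 and 127 across Ctrl. The lowest and highest libraries were in opposite groups, and the difference was 0.14 (SE 0.29). Top2a, the topoisomerase that untangles sister DNA, stood at 99.3, 109 and 121 across OE and 99.9, 122 and 125 across Ctrl. Top2a varied the least of all members, with a ratio of 1.25 between highest and lowest library. Its difference was -0.07 (SE 0.16).

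All 4 genes of the mitotic cyclins and their kinase lay below 0, with a median of -0.23. Cdk1, the kinase that drives entry into mitosis, stood at 58.4, 90.4 and 85.7 FPKM across OE and 89.9, 103 and 75.8 across Ctrl. Ccnb2, cyclin B2, stood at 55.8, 81.8 and 95.9 across OE and 82.0, 115 and 89.9 across Ctrl (log2 difference -0.31, SE 0.24). Ccnb1, cyclin B1, stood at 44.7, 53.2 and 53.5 across OE and 48.9, 70.1 and 64.4 across Ctrl. In all of these OE 1 was lowest and Ctrl 2 highest. Ccna2, cyclin A2, averaged 71.2 ± 17.4 FPKM across OE and 79.9 ± 15.1 across Ctrl (SD, n = 3).

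The 4 mitotic kinase genes, a role that here includes the kinase partner Birc5, also lay below 0, with a median of -0.26. Plk1, polo-like kinase (ENSMUSG00000030867, chromosome 7, 122159439 to 122169873, plus strand, GRCm38, 10 exons), stood at 48.9, 60.3 and 45.9 FPKM across OE and 63.9, 70.1 and 64.9 across Ctrl. The groups were apart, with OE 3 lowest, and the Ctrl libraries were close to each other. The difference was -0.36 (SE 0.15, limma adjusted p = 0.554). Aurkb, the kinase of the chromosomal passenger complex, stood at 39.8, 49.3 and 49.4 across OE and 49.6, 61.4 and 55.7 across Ctrl, so OE 3 and the library labelled Ctrl 1 nearly met. Birc5, or survivin, its partner in that complex, overlapped between groups at 75.5, 112 and 127 across OE and 112, 134 and 98.5 across Ctrl. Aurka, a spindle pole kinase, averaged 42.9 ± 7.08 FPKM across OE and 51.2 ± 5.87 across Ctrl (SD, n = 3).

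Cdc20 had the lowest difference of the mitosis genes. Its product activates the anaphase-promoting complex, the ubiquitin ligase that ends metaphase (ENSMUSG00000006398, chromosome 4, 118432901 to 118437352, minus strand, GRCm38, 10 exons). Cdc20 stood at 46.2, 60.6 and 53.5 FPKM across OE and 71.4, 84.0 and 68.3 across Ctrl. Every OE library lay below every Ctrl library. OE averaged 53.4 ± 7.20 FPKM and Ctrl 74.6 ± 8.33 (SD, n = 3), a log2 difference of -0.48 (SE 0.16, limma adjusted p = 0.554). Ube2c, the ubiquitin-conjugating enzyme of the same complex, had the highest mean of the mitosis genes at 109, 162 and 172 across OE and 158, 230.2 and 160.5 across Ctrl. Here OE 2 and OE 3 lay inside the Ctrl range (log2 difference -0.31, SE 0.24). The checkpoint kinases, which hold anaphase back until chromosomes are attached, lay close between groups. Bub1 averaged 16.4 ± 1.06 FPKM across OE and 17.6 ± 2.30 across Ctrl, and Bub1b 33.4 ± 3.40 and 36.7 ± 2.06 (SD, n = 3).

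Of the spindle genes, 3 of 4 lay below 0, with a median of -0.14, and Kif11 turned to 0.0062 under that scaling without S100a8, S100a9 and haemoglobin. Kif11, the motor that pushes spindle poles apart, stood at 35.9, 33.1 and 45.6 FPKM across OE, with 29.2 for the library labelled Ctrl 1 and, for Ctrl 2 and 3, 48.4 and 48.7. Leaving out the library labelled Ctrl 1 therefore moved its difference from -0.11 (SE 0.24) to -0.35 (SE 0.19), with a limma adjusted p of 0.445. Kif20a, a motor of cell cleavage, averaged 18.9 ± 1.63 FPKM across OE and 22.3 ± 2.18 across Ctrl, and Tpx2, which activates Aurora A on the spindle, 42.3 ± 5.02 and 47.8 ± 4.07 (SD, n = 3). Nusap1, a microtubule-binding spindle protein, stood at 29.5, 37.2 and 50.7 across OE and 31.2, 45.4 and 38.1 across Ctrl, with a difference of 0.01 (SE 0.24).

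The 3 centromere genes were split. Cenpa, the histone that marks the centromere, stood at 50.9, 75.6 and 74.4 FPKM across OE and 70.1, 93.6 and 71.3 across Ctrl (log2 difference -0.23, SE 0.21). Cenpe, a motor at the kinetochore, stood at 13.9, 13.4 and 17.4 across OE and 11.0, 14.1 and 16.9 across Ctrl. Cenpf, another kinetochore protein, stood at 9.69, 10.9 and 17.0 across OE and 9.06, 13.4 and 12.6 across Ctrl. The differences of Cenpe and Cenpf were 0.09 (SE 0.19) and 0.07 (SE 0.24), and in both the library labelled Ctrl 1 was lowest and OE 3 highest.

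**Figure D3:**
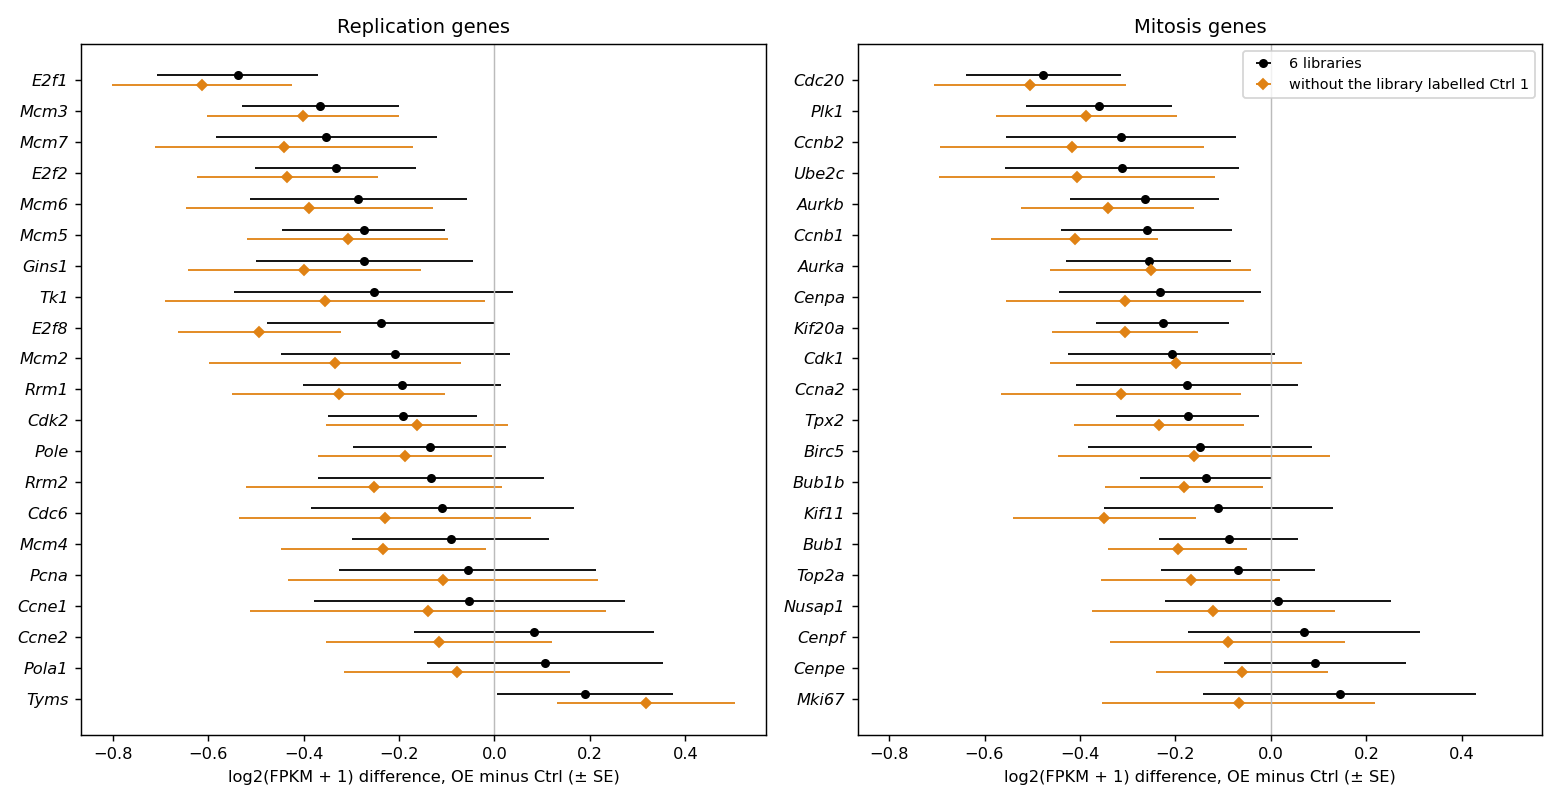
Log2(FPKM + 1) difference, OE minus Ctrl, for each replication gene (left) and mitosis gene (right), with bars of 1 standard error from limma, for all 6 libraries (black circles) and without the library labelled Ctrl 1 (orange diamonds). With 6 libraries 35 of 42 members lie below 0 (28 when S100a8, S100a9 and haemoglobin are left out of the scaling) and none passed the test; without that library 41 lie below 0, Tyms being the exception, and none passed.

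Without the library labelled Ctrl 1, 0 of the 42 members were called, while 597 of the 12177 genes, or 4.9%, were. The smallest adjusted p of a member was 0.154, for E2f1, at a difference of -0.61. Of the members, 41 lay below 0, against 58.5% of all genes, with Tyms at 0.32 as the exception. Mki67, Pola1, Cenpe, Ccne2, Cenpf and Nusap1 changed sign, to between -0.06 and -0.12. When libraries were instead weighted by how closely they followed the fit (limma array weights), 1394 genes or 11.4% were called, and among the members E2f1, E2f2 and Cdc20. These 3 of 42 members are a smaller share than that of all genes. Their differences in that fit were -0.78, -0.55 and -0.64, with limma adjusted p-values of 0.037, 0.048 and 0.041. That fit rested largely on Ctrl 2, the highest library for E2f1, E2f2 and Cdc20. Its weight was 5.82, against 0.41 for the library labelled Ctrl 1 and 0.42 for OE 3. With both the library labelled Ctrl 1 and OE 3 left out, 1388 genes or 11.4% were called and 1 member, E2f1, at -0.72 with a limma adjusted p of 0.049.

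Replication and mitosis genes mostly moved together from library to library. The mean log2(FPKM + 1) of the replication genes was 4.91, 5.20 and 5.50 in OE and 5.19, 5.61 and 5.34 in Ctrl. That of the mitosis genes was 5.36, 5.66 and 5.77 in OE and 5.58, 5.94 and 5.78 in Ctrl. In both groups of genes OE 1 was the lowest library and Ctrl 2 the highest as deposited. With S100a8, S100a9 and haemoglobin left out of the scaling OE 3 became the highest in both, and for mitosis the library labelled Ctrl 1 the lowest, at 5.46 against 5.49 in OE 1. Every one of the 21 replication genes was higher in Ctrl 2 than in OE 1, by a median ratio of 1.69, and so was every one of the 21 mitosis genes, by 1.54. Under the other scalings 37 to 39 of the 42 were. Replication was highest relative to mitosis in OE 3, by a small margin. Relative to OE 2, OE 3 had 18 of 21 replication genes higher, with a median ratio of 1.25, but 12 of 21 mitosis genes, with a median of 1.01. Without S100a8, S100a9 and haemoglobin in the scaling both had 20 of 21 higher, with median ratios of 1.59 and 1.28. The replication level minus the mitosis level was -0.28 in OE 3, while the remaining 5 libraries had -0.33 to -0.46. Ctrl 2 came next to OE 3 at -0.33, and OE 2, the library compared with OE 3 above, was the lowest. Mean levels over all genes tested stayed between 3.74 and 3.83.

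**Figure D4:**
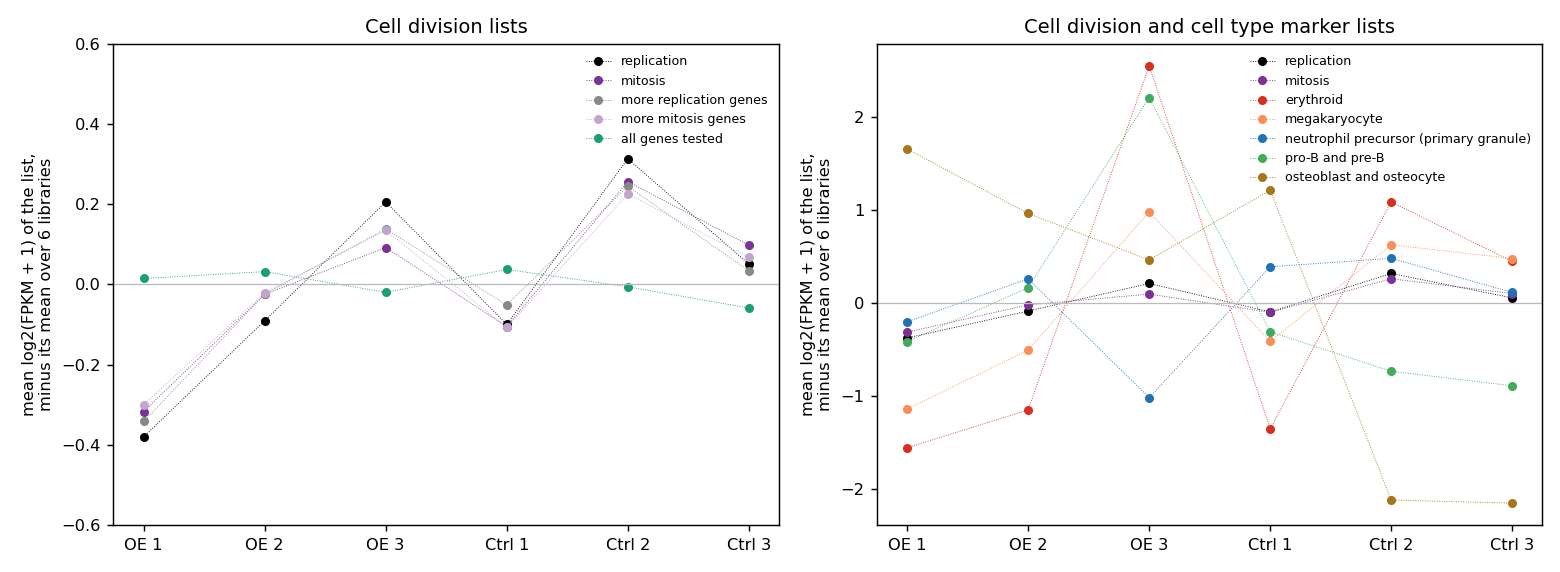
Mean log2(FPKM + 1) of each gene list in each library, minus the mean of that list over the 6 libraries; dotted lines only join the points of one list, since libraries have no order. Division lists (left) are, as deposited, lowest in OE 1 and highest in Ctrl 2 (OE 3 is highest for replication under all 3 other scalings, for mitosis under 2 of them and for both wider lists after trimmed-mean scaling), over a range of 0.53 to 0.69, while erythroid and osteoblast markers (right) range over 4.11 and 3.81.

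Wider lists of the same pathways had the same library order at their ends. Of 45 further replication genes, 0 were called by limma with 6 libraries, 38 lay below 0 and the median was -0.14. An unadjusted p under 0.05 was found for 3 of the 45, no larger a share than the 8.2% of all genes. The 3 with the smallest p were Pold2, a subunit of the lagging-strand polymerase, Chaf1a, which loads histones behind the fork, and Mybl2, a factor for G2 genes. Pold2 stood at 12.8, 18.6 and 14.5 FPKM across OE and 21.8, 27.4 and 22.3 across Ctrl, without overlap (log2 difference -0.61, SE 0.18, adjusted p = 0.554). Of 53 further mitosis genes, 0 were called, 45 lay below 0 and the median was -0.12. Those with the smallest p were Tacc3, Cdca3 and Incenp, the last being the scaffold of the passenger complex that holds Aurkb and Birc5. Incenp stood at 44.5, 52.1 and 51.6 across OE and 60.6, 64.7 and 60.0 across Ctrl (log2 difference -0.32, SE 0.13, adjusted p = 0.554). As with the members, OE 1 was the lowest library of both lists and Ctrl 2 the highest, though OE 3 led both after trimmed-mean scaling.

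Genes that restrain the cycle shared that library order only by 1 of 2 measures. Of 24 such genes, 23 were tested, 13 lay below 0, 0 were called and the median was -0.01. By mean log2(FPKM + 1) the lowest library was Ctrl 3 and the highest OE 3. By summed FPKM, OE 1 was the lowest at 553 and Ctrl 2 the highest at 671. Pkmyt1, a kinase that inhibits Cdk1, was as deposited lower in every OE library, at 15.6, 18.1 and 19.1 FPKM across OE and 22.7, 24.8 and 23.0 across Ctrl (log2 difference -0.40, SE 0.13, adjusted p = 0.554). Ccng1, a p53 target, was higher in every OE library, at 25.6, 24.8 and 27.1 across OE and 19.9, 20.5 and 20.4 across Ctrl (log2 difference 0.34, SE 0.12, adjusted p = 0.554). Cdkn1c, an inhibitor of cyclin-dependent kinases, stood at 6.86, 8.68 and 7.95 across OE, with 7.02 for the library labelled Ctrl 1 and, for Ctrl 2 and 3, 3.54 and 3.01. Without that library 2 of the 23 were called, both higher in OE, where 4.9% of all genes were called and 518 of those 597 were higher. They were Cdkn1c (log2 difference 1.04, adjusted p = 0.022) and Cdkn1a, the p21 inhibitor, named after its values were seen (1.89, adjusted p = 0.012). Cdkn1a stood at 50.9, 33.2 and 31.2 across OE, with 50.1 for the library labelled Ctrl 1 and, for Ctrl 2 and 3, 8.91 and 9.86. Ctrl 2 and Ctrl 3 also lay below each remaining library in 10 of 10 osteoblast and osteocyte markers and 7 of 7 cartilage markers. With the library labelled Ctrl 1 left out, OE and Ctrl thus also differed in those markers. The part of bone and cartilage content in these calls was not tested.

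Among 9 genes of G1, 6 lay below 0, 0 were called and the median was -0.17. Ccnd1, cyclin D1, stood at 8.28, 6.39 and 8.14 FPKM across OE, with 5.53 for the library labelled Ctrl 1 and, for Ctrl 2 and 3, 2.89 and 2.82. It was higher in every OE library (log2 difference 0.90, SE 0.24, limma adjusted p = 0.554), and was called without the library labelled Ctrl 1 (1.15, limma adjusted p = 0.017). For Ccnd1 too, the part of bone and cartilage content in that call was not tested. Myc stood at 32.4, 33.8 and 37.6 across OE and 42.6, 41.4 and 39.0 across Ctrl, and Skp2, which targets the p27 inhibitor for degradation, averaged 9.11 ± 1.33 FPKM across OE and 7.47 ± 0.150 across Ctrl (SD, n = 3). The members did not share the split of Ccnd1 and Cdkn1a between libraries. In 0 of 42 members were both Ctrl 2 and Ctrl 3 below the other 4 libraries, whereas this held for 10 of 10 osteoblast and osteocyte markers and for 2032 of the 12177 genes tested.

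Marker levels of other cells moved between the same libraries, and their part in the members' values was not tested. Summed over 13 erythroid markers, FPKM was 1415, 2386 and 45587 across OE and 1759, 10143 and 5123 across Ctrl, and 9 of the 13 lay below 0. Over 7 megakaryocyte markers the sums were 399, 699 and 2178 across OE and 685, 1522 and 1249 across Ctrl, with 7 of 7 below 0. Both lists, like the members, were lowest in OE 1. Their highest library was OE 3, which for the 42 members together was so only when S100a8, S100a9 and haemoglobin, or the marrow markers, were left out of the scaling. Over 8 neutrophil precursor markers the sums were 6287, 9216 and 3652 across OE and 10091, 11003 and 8476 across Ctrl, with 8 of 8 below 0. Over 11 pro-B and pre-B markers they were 71.3, 130.5 and 599.7 in OE and 62.2 to 87.4 in Ctrl, with 0 of 11 below 0. OE 3 thus held the most erythroid, megakaryocyte and early B-cell RNA and the least of the neutrophil precursors. It was also, by a small margin, the library with the highest replication level relative to mitosis. For 10 osteoblast and osteocyte markers the sums were 7069, 6518 and 4231 across OE, with 6071 for the library labelled Ctrl 1 and, for Ctrl 2 and 3, 479 and 397. Later neutrophil markers lay below 0 in 10 of 10, osteoclast markers in 1 of 6 and cartilage markers in 0 of 7. The osteoclast marker below 0 was Mmp9, which was also in the later neutrophil list. No marker of any of these lists was at 0 in any library.

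How long a gene's transcript is also went with its order among libraries. In bins of the longest coding transcript, chosen after the values were seen, genes of up to 2 kb had a median deviation from their own mean of -0.18, 0.14 and -0.07 in OE and 0.17, 0.16 and -0.15 in Ctrl (3098 genes, log2 scale). Genes over 6 kb had 0.19, -0.08 and 0.05 in OE and -0.16, -0.11 and 0.15 in Ctrl (1528 genes). Short and long genes were therefore opposite in sign in every library. Of the members, 9 were of up to 2 kb, with -0.51 in OE 1 and 0.38 in Ctrl 2. The 4 members over 6 kb, Mki67, Cenpe, Cenpf and Pole, had -0.15 in OE 1 and 0.08 in Ctrl 2, and 3 of the 4 are among the 7 members with a difference above 0. In each of the 4 length bins OE 1 lay below Ctrl 2 for the members, on FPKM as deposited. The part of transcript length in the single differences was not tested.

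**Figure D5:**
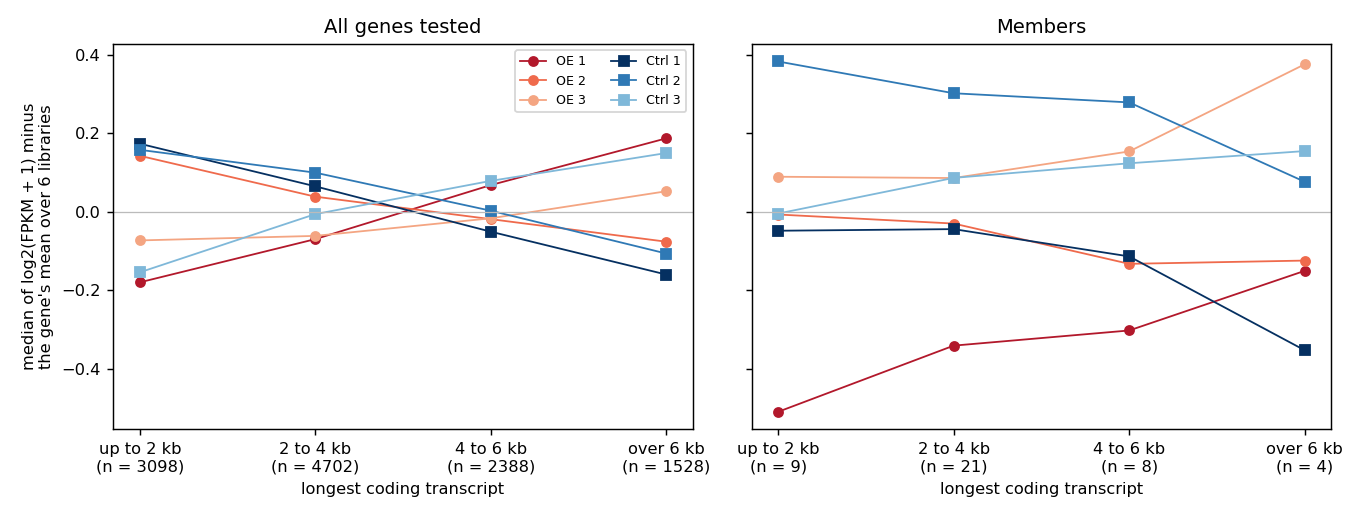
Median of log2(FPKM + 1) minus the gene's mean over the 6 libraries, for all genes tested (left) and the members (right), in 4 bins of longest coding transcript, with 1 line per library. For all genes OE 1 goes from -0.18 in the shortest bin to 0.19 in the longest; for the members it goes from -0.51 to -0.15 and lies below Ctrl 2 in every bin.

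Some member values may hold reads of other genes, since the sources used here state neither the strand setting nor how shared reads were treated. Of the members, 9 overlap a coding gene on the opposite strand: Ccna2, Ccne2, Cdc20, Cdk2, Kif20a, Mcm7, Nusap1, Tk1 and Ube2c. Cdc20 overlaps Elovl1, a fatty acid elongase, and Ube2c overlaps Tnnc2, a troponin of fast muscle. Another 4 members, Ccnb1, Ccnb2, Pcna and Tyms, have a named pseudogene. The values of both sets of members are uncertain to that extent.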

How the data were processed

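RNA of 6 femur libraries, 3 labelled OE and 3 labelled Ctrl in their titles, was sequenced by the submitters. Per the file headers, the deposited values are FPKM, 1 per gene and library. The submitters' processing notes name TopHat2, Cufflinks, DESeq and the mm10 build, with no versions or settings. The sources used here give no counts and no depth. Of 22824 rows, 21606 had an Ensembl identifier, and 21172 of these had a symbol in the GENCODE M21 annotation of GRCm38.

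Genes reaching 1 FPKM in 3 or more libraries were compared on log2(FPKM + 1) with limma 3.58.1 (lmFit, eBayes with trend) in R 4.3.3. The Benjamini-Hochberg adjustment ran over the 12177 genes tested, with a threshold of 0.05, and the fit was tested on simulated data. The simulated noise was independent for each gene and library. It therefore does not show how the fit performs where libraries differ in tissue content, as these do. Differences on this scale understate changes of low genes. Lists were described by counts and medians with no set test. Named genes were all members, the 3 genes of smallest p in each pathway list, the 2 highest markers of a cell type where a result turned on them, and Wnt7b. Members and lists were chosen with earlier results of these data known. Alternatives were pseudocount, filters, trend, 3 scalings, array weights, a replicate block and left-out libraries. Python 3.11.15, pandas 2.3.3 and matplotlib 3.10.9 made tables and plots.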

Additional observations from a re-analysis of the deposited data

How the results depend on the processing

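The count of 0 genes called was the same with a pseudocount of 0.1, no filter, a filter of 5 FPKM, no trend, the 3 scalings and the replicate block. It became 1394 with array weights and 1388 when the library labelled Ctrl 1 and OE 3 were both left out, and ran from 0 to 597 with single libraries left out, 597 being without the library labelled Ctrl 1. The replication median was -0.46 with array weights, -0.45 without both libraries, and -0.34 to -0.04 with single libraries left out; the mitosis median was -0.41, -0.32, and -0.25 to -0.05. Array weights gave Ctrl 2 a weight of 5.82, against 0.41 for the library labelled Ctrl 1. Signs of uncalled members turned as follows. Top2a, Ccne1 and Pcna were at 0.0018, 0.014 and 0.016 with trimmed-mean scaling, and at 0.023, 0.035 and 0.037 with scaling without marrow markers. Scaling without S100a8, S100a9 and haemoglobin put them at 0.049, 0.060 and 0.063, Kif11 at 0.0062, Cdc6 at 0.0061, Bub1 at 0.024 and Mcm4 at 0.025. With array weights, Cenpf, Mki67, Nusap1, Ccne2 and Pola1 were at -0.22, -0.015, -0.32, -0.30 and -0.12. With the library labelled Ctrl 1 and OE 3 both left out they were at -0.32, -0.30, -0.32, -0.31 and -0.30, and Cenpe at -0.17. With single libraries left out, Cenpe ran from -0.061 to 0.23, Cenpf from -0.16 to 0.22, Mki67 from -0.088 to 0.33, Ccna2 from -0.35 to 0.0032 and Birc5 from -0.30 to 0.069. Kif11 ran from -0.35 to 0.011, Nusap1 from -0.19 to 0.20, Ccne1 from -0.36 to 0.27, Ccne2 from -0.12 to 0.25 and Cdc6 from -0.40 to 0.089. Mcm4 ran from -0.25 to 0.031, Rrm2 from -0.31 to 0.071, Tk1 from -0.52 to 0.0084, Pcna from -0.27 to 0.19 and Pola1 from -0.11 to 0.23. The cause of these changes was not tested. Equal replicate numbers share only a number: the correlations of deviations between same-numbered libraries were 0.44, 0.09 and 0.31. OE 2 was closest to the library labelled Ctrl 1, at 0.14, and OE 3 was closest to Ctrl 2, at 0.42. With the replicate block 0 genes were called and the smallest adjusted p of a member was 0.246, with 1797 genes at an unadjusted p under 0.05. The files used here give no counts, so no counting error can be set on a single value.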
